A study of Mus musculus with 12 samples.

Results

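The genes described here were 10 genes of the circadian clock among the 49585 genes with deposited read counts. They were *Arntl* (also called *Bmal1*), *Clock*, *Per1*, *Per2*, *Per3*, *Cry1*, *Cry2*, *Nr1d1*, *Nr1d2*, and *Dbp*. The 10 were chosen by name, with earlier results of these data known. All 10 had enough counts to be tested in every comparison, with between 146 (*Per3*) and 17573 (*Nr1d1*) counts in a mouse. The adrenal cortex of 12 male mice was examined by RNA-seq, 1 library per mouse, in 3 groups of 4. Mice on a low-fat diet (LFD, 10% of the energy as fat, called a normal diet in the labels) and mice on a high-fat diet (HFD, 60% of the energy as fat) were fed for 20 weeks from 6 weeks of age. The remaining 4 mice were fed the HFD for the same 20 weeks and received icosapent ethyl, the ethyl ester of the omega-3 fatty acid eicosapentaenoic acid (Vascepa), in it for the last 10 weeks. The labels give the genotype *Fads2*-/- for all 12 mice, whereas the methods of the study describe wild-type C57BL/6J mice for these diets, and *Fads2* was expressed at 452 to 2182 CPM (counts scaled to the size of the library) in each of them. The hour of tissue collection and the light schedule were not given in the sources used here, so that levels below are levels at an unstated clock time.

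The circadian clock is a feedback loop of transcription that runs in nearly every cell of the body. The proteins of *Arntl* and *Clock* pair and activate the *Per* and *Cry* genes through E-box sequences in DNA, and the PER and CRY proteins return to the nucleus and inhibit this pair. In a second loop, the nuclear receptors encoded by *Nr1d1* and *Nr1d2* (REV-ERB alpha and beta) repress *Arntl* at sites that ROR receptors activate, and *Dbp*, itself an E-box target, encodes a transcription factor that acts on D-box sequences. The adrenal cortex has a clock of this kind, glucocorticoid secretion follows a daily rhythm, and *Per1* is in addition known as a gene that cAMP signaling and glucocorticoids induce within a short time.

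The sequences around the start sites that carry these regulatory letters are shown first, because *Per1* and the D-box and E-box targets are described separately below. RefSeq promoter windows (GRCm38.p6), from 250 bases before to 50 bases after a start site, were found for 9 of the 10 genes, 13 windows in all. Both strands were searched for the E-box CACGTG, the D-box TTATGTAA, the ROR element core TAGGTCA, the full cAMP response element TGACGTCA, and the short cAMP element TGACG, which is contained in the full one. The E-box was found before *Per1* and *Cry1*, the D-box at 2 places before *Per3*, the ROR element core in *Arntl*, and the short cAMP element in both windows of *Per1* and in those of *Cry1* and *Cry2*. Of all 32851 promoter windows of this length, 7.15% held the E-box, 0.938% the D-box, 2.61% the ROR element core, 20.8% the short cAMP element, and 1.79% the full cAMP element, which was in 0 of the 13 windows. The lines below are written 5′ to 3′ on the strand of the gene, with the matched letters in capitals. The last 10 bases of the *Cry1* line, which hold its short cAMP element, lie in a noncoding part of an exon of the annotated gene.
*Per1*, upstream start site (GRCm38, + strand, chr11:69098699-69098948, inside the annotated gene, E-box and short cAMP element): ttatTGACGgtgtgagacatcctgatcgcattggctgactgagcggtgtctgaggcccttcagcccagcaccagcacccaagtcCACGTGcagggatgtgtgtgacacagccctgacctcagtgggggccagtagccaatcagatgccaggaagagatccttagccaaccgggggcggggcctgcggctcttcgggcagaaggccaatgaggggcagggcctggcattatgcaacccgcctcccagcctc
*Per1*, downstream start site (GRCm38, + strand, chr11:69099902-69100151, inside the annotated gene and in no exon, short cAMP element): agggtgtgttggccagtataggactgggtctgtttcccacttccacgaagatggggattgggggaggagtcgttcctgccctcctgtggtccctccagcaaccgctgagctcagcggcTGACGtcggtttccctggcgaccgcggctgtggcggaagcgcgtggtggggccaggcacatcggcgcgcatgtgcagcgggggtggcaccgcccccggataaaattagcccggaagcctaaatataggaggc
*Cry1* (GRCm38, - strand, chr10:85185055-85185304, E-box and short cAMP element): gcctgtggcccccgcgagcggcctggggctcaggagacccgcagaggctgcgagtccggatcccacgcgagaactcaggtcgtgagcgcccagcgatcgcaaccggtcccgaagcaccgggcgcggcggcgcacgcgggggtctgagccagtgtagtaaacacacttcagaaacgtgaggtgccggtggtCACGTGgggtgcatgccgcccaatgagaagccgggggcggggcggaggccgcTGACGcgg
*Per3* (GRCm38, - strand, chr4:151044666-151044915, outside the annotated gene, both D-boxes): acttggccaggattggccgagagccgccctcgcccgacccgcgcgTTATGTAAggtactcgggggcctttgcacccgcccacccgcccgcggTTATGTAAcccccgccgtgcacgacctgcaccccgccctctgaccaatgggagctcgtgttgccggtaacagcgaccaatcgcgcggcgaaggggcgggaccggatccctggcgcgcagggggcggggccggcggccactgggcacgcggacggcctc
*Arntl*, 30 bases (GRCm38, + strand, chr7:113207530-113207559, in a noncoding part of an exon, ROR element core): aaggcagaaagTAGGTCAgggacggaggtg

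Levels are CPM after normalization by the trimmed mean of M values (TMM), and levels of different genes are compared per kilobase (kb) of exon. On that scale, *Nr1d1* had the highest mean level over the 12 mice, at 51.8 ± 20.8 CPM per kb (SD, n = 12), followed by *Dbp* with 36.5 ± 15.5 and *Nr1d2* with 19.4 ± 3.40 CPM per kb. *Per1* stood at 14.3 ± 11.2, *Per2* at 9.07 ± 3.76, *Cry2* at 8.49 ± 4.54, and *Clock* at 6.31 ± 1.08 CPM per kb. The lowest levels were those of *Arntl* with 3.44 ± 0.903, *Cry1* with 3.01 ± 0.769, and *Per3* with 0.471 ± 0.109 CPM per kb. By these means, *Nr1d1*, *Nr1d2*, and *Dbp* were more abundant per kb than the activators *Clock* and *Arntl*, whereas *Cry1* and *Per3* were below them. *Arntl* was above *Cry1* in 9 mice, however, and in LFD mice the mean of *Cry1* was the higher (3.57 against 3.41 CPM per kb). *Per3* was below *Cry1* in all 12 mice, and *Dbp* was above *Nr1d2* in 11 mice. Neighbors in this order overlapped elsewhere, since *Per1* was above *Per2* in 7 mice and *Cry2* above *Clock* in 5.

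**Figure D1:**
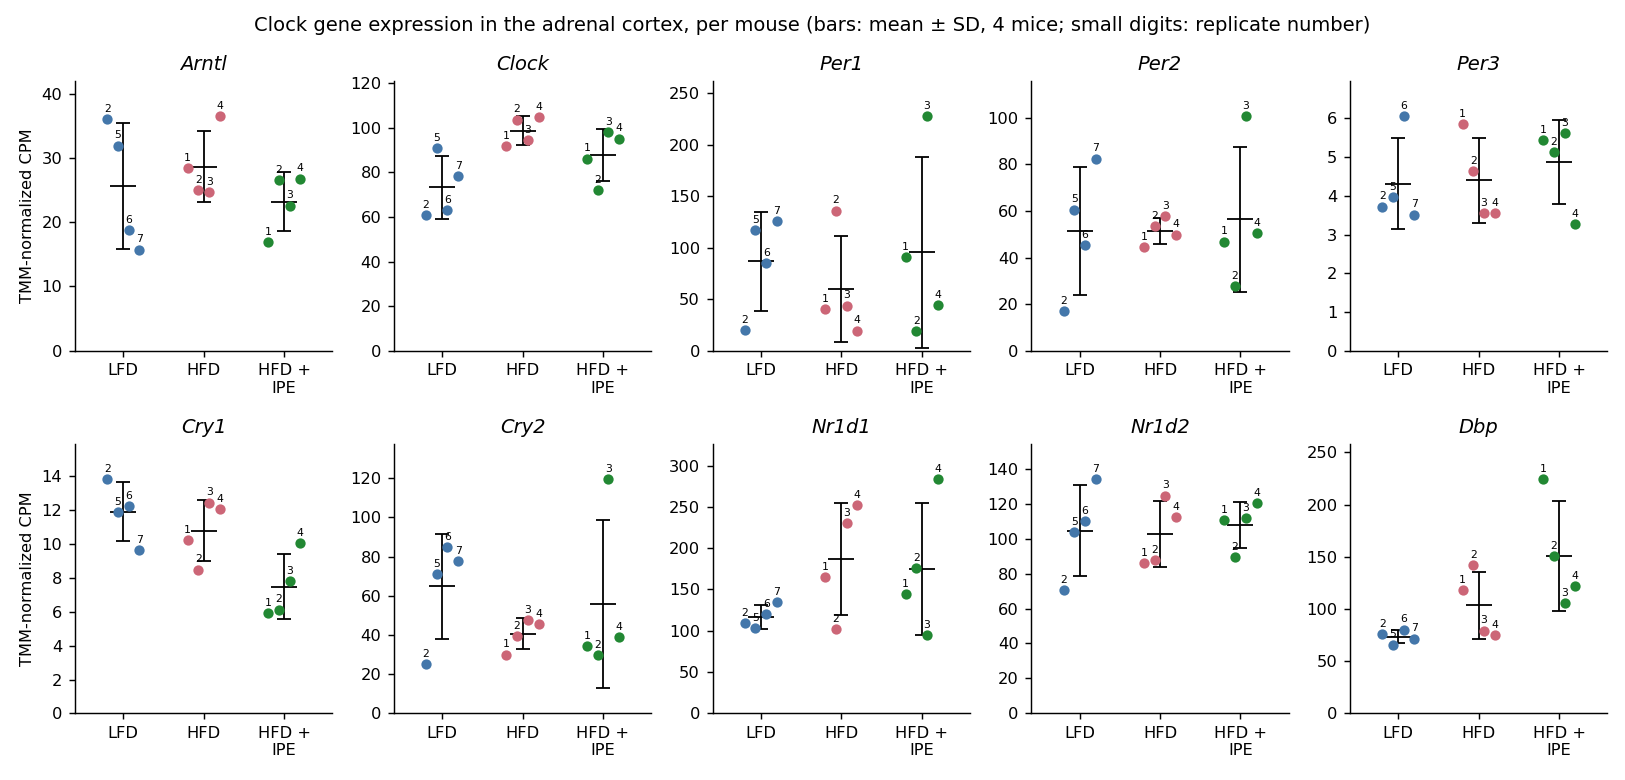
TMM-normalized CPM of the 10 clock genes (vertical axes, starting at 0) in LFD mice, HFD mice, and mice on a HFD with icosapent ethyl (HFD + IPE). Each point is 1 mouse with its replicate number, and bars give the mean ± SD of 4 mice. The 4 HFD mice lay above the 4 LFD mice for *Clock*, the icosapent ethyl–treated mice lay above the LFD mice for *Dbp*, and *Per1* ranged from 18.8 to 228 CPM.

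The libraries held between 34785979 and 67295963 counts. All 7 adrenocortical markers were abundant in each mouse, with a summed level of 41302 to 94421 CPM. Markers of chromaffin cells, the cells of the adrenal medulla, were also detected, 12 of 12 in every mouse and at 0 in none, with a summed level of 5279 to 18654 CPM in LFD, 2583 to 8279 in HFD, and 4679 to 9114 in icosapent ethyl–treated mice. Kidney markers summed to at most 0.452 CPM. LFD mouse 2 stood apart from the other LFD mice with a summed level of 10 early genes of cAMP signaling of 337 CPM, where the others had 2699 to 4400. Fewer cells of a type and less RNA per cell cannot be told apart in these bulk samples.

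The first comparison addressed the diet. Between HFD and LFD mice, edgeR (quasi-likelihood test, Benjamini-Hochberg adjustment over all genes, threshold 0.05) called 0 of the 10 clock genes, and DESeq2 also called 0. Of the 15909 genes tested by edgeR, 1.45% passed, and of the 16923 genes with an adjusted p by DESeq2, 11.4% did. At an unadjusted p below 0.05 there were 3 of the 10 (*Clock*, *Nr1d1*, and *Dbp*, all higher in HFD mice), where 24.8% of all genes were below it. The log2 fold change was above 0 for 6 of the 10 genes, with a median of 0.011 against -0.015 over all genes tested. No clock gene thus passed the threshold over all genes by either test.

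*Clock* (ENSMUSG00000029238, chr5:76209868-76304792, - strand) encodes a partner of the activator pair. Its level was 61.0, 91.0, 63.1, and 78.3 CPM in LFD mice 2, 5, 6, and 7, and 91.9, 103.7, 94.3, and 104.8 CPM in HFD mice 1 to 4. The HFD mice were all above the LFD mice, although LFD mouse 5 came within 1 CPM of the lowest HFD mouse. It was the 1 clock gene of 10 whose LFD and HFD values did not overlap, and 13.5% of all genes tested had such separate groups. HFD mice had a mean of 98.7 ± 6.52 CPM and LFD mice of 73.4 ± 14.1 CPM (SD, 4 mice each). The difference was 0.42 ± 0.13 on the log2 scale (SE), with an edgeR adjusted p of 0.1004. In icosapent ethyl–treated mice, *Clock* was at 86.2, 72.2, 98.2, and 95.1 CPM, between and overlapping both other groups. The mean of 87.9 ± 11.7 CPM was lower than in HFD mice by a log2 fold change of -0.17 ± 0.11 and higher than in LFD mice by 0.26 ± 0.15, and neither passed edgeR's test (adjusted p = 0.9997 and 0.442).

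*Arntl* (ENSMUSG00000055116, chr7:113207465-113314126, + strand), the other partner, had no such pattern. LFD mice were at 36.1, 31.9, 18.8, and 15.8 CPM, HFD mice at 28.5, 25.1, 24.7, and 36.5, and icosapent ethyl–treated mice at 16.9, 26.5, 22.6, and 26.8. All 3 groups overlapped, and the LFD mice alone covered most of the range of the 12 animals. The log2 fold change was 0.14 ± 0.27 for HFD versus LFD and -0.30 ± 0.18 for icosapent ethyl–treated versus HFD mice, with edgeR adjusted p values of 0.785 and 0.9997. The pattern of *Arntl* over the 12 mice, after subtraction of the group means, was most like that of the pseudogene *Rps19-ps3* (Pearson's r = 0.858) and of *Ppm1d* (r = 0.856), *Usp28* (r = 0.844), *4732491K20Rik* (r = 0.833), and *Myd88* (r = 0.832), out of 13457 genes compared.

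Of the *Per* genes, which encode the period proteins of the inhibitory complex, *Per1* (ENSMUSG00000020893, chr11:69095217-69109960, + strand) varied most. It was at 19.8, 117, 85.0, and 125 CPM in LFD mice, at 40.3, 136, 43.8, and 19.4 CPM in HFD mice, and at 90.8, 18.8, 228, and 44.1 CPM in icosapent ethyl–treated mice. Each group held a mouse below 20 CPM and a mouse above 120 CPM, so the groups overlapped over nearly their whole range. The highest mouse was 12.1 times the lowest. Within groups, the SD of log2 CPM was 1.32, larger than that of 99.5% of 13458 genes, whose median was 0.234. HFD mice had 59.9 ± 51.8 and LFD mice 86.8 ± 47.9 CPM, with a log2 fold change of -0.53 ± 0.65 and an edgeR adjusted p of 0.653. The change was -0.86 ± 0.56 without LFD mouse 2, and it ranged from -1.33 without HFD mouse 2 to -0.24 without HFD mouse 4. Icosapent ethyl–treated mice had 95.3 ± 93.1 CPM, and the log2 fold change against HFD mice was 0.67 ± 0.79 (edgeR adjusted p = 0.9997). Without icosapent ethyl–treated mouse 3 it was -0.22 ± 0.71, so 1 mouse decided its sign.

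*Per2* (ENSMUSG00000055866, chr1:91415982-91459324, - strand) correlated with *Per1* within the LFD and icosapent ethyl–treated groups (r = 0.982 and 0.939, 4 mice each), less so among the HFD mice (r = 0.302). LFD mice had 17.0, 60.6, 45.5, and 82.5 CPM, HFD mice 44.4, 53.4, 57.8, and 49.9, and icosapent ethyl–treated mice 46.8, 27.8, 100.7, and 50.6 CPM. The HFD mice lay close together, while LFD mouse 2 and icosapent ethyl–treated mouse 2 were low and icosapent ethyl–treated mouse 3 was high, as for *Per1*. LFD and HFD means were nearly equal at 51.4 ± 27.5 and 51.4 ± 5.67 CPM, with a log2 fold change of 0.0017 ± 0.37, whose sign turned with 1 mouse left out (-0.29 ± 0.19 without LFD mouse 2). The change with icosapent ethyl was 0.14 ± 0.33, or -0.30 ± 0.20 without mouse 3, with edgeR adjusted p values of 0.9997 and 0.9994.

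*Per3* (ENSMUSG00000028957, chr4:151003652-151044665, - strand) was the least expressed member, at 3.26 to 6.06 CPM in all 12 mice. Its groups overlapped with means of 4.32 ± 1.18 CPM in LFD, 4.401 ± 1.098 in HFD, and 4.86 ± 1.08 in icosapent ethyl–treated mice. Its log2 fold changes were 0.021 ± 0.25 for the diet and 0.14 ± 0.24 for icosapent ethyl. *Per3* lies inside *Camta1*, a gene on the same strand with 403 to 818 counts in a mouse, and shares 0 exon bases with it. Counting by strand does not separate reads from the introns of *Camta1*, and their part in the *Per3* counts was not tested.

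The cryptochromes, the partners of the PER proteins in the inhibitory complex, differed from each other. *Cry1* (ENSMUSG00000020038, chr10:85131700-85185064, - strand) was at 13.9, 11.9, 12.3, and 9.65 CPM in LFD and at 10.2, 8.50, 12.46, and 12.1 CPM in HFD mice. In icosapent ethyl–treated mice it was at 5.92, 6.14, 7.81, and 10.1 CPM, and 3 of these 4 mice were below all 8 others. The mean of 7.48 ± 1.92 CPM compared with 10.8 ± 1.82 CPM in HFD mice, with a difference of -0.53 ± 0.21 on the log2 scale and an edgeR adjusted p of 0.9997. It compared with 11.9 ± 1.74 CPM in LFD mice, with a difference of -0.67 ± 0.20 and an edgeR adjusted p of 0.256. *Cry1* was lower with icosapent ethyl under each of the alternatives tried in the comparison with HFD mice, between -0.70 and -0.43 on the log2 scale, and passed the test in none of them.

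*Cry2* (ENSMUSG00000068742, chr2:92403646-92434043, - strand) was at 25.2, 71.2, 84.9, and 77.8 CPM in LFD mice and at 30.04, 39.3, 47.7, and 45.4 CPM in HFD mice. LFD mice 5, 6, and 7 exceeded all HFD mice, and LFD mouse 2 was below them. The means were 64.8 ± 27.0 and 40.6 ± 7.91 CPM, with a log2 fold change of -0.68 ± 0.33 and an edgeR adjusted p of 0.234. Without LFD mouse 2 the change was -0.94 ± 0.16, with an edgeR adjusted p of 0.0528, and over all alternatives the adjusted p lay between 0.0528 and 0.473. Icosapent ethyl–treated mice had 34.3, 29.9, 119.6, and 38.8 CPM, so that 3 mice were within the range of the HFD mice or just below it and mouse 3 was far above. The change against HFD mice was 0.46 ± 0.43, and -0.24 ± 0.17 without mouse 3, with edgeR adjusted p values of 0.9997 and 0.9994.

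The REV-ERB genes repress *Arntl*. *Nr1d1* (ENSMUSG00000020889, chr11:98767932-98775333, - strand) was at 109, 103, 120.2, and 135 CPM in LFD mice. In HFD mice it was at 165, 102, 229.9, and 252 CPM, 3 of them above every LFD mouse and mouse 2 just below the lowest one. The means of 187 ± 67.7 and 117 ± 14.2 CPM gave a log2 fold change of 0.67 ± 0.25 (edgeR adjusted p = 0.146). With icosapent ethyl it was at 144, 176, 94.5, and 284 CPM, overlapping both other groups, and the change against HFD mice was -0.10 ± 0.36. *Nr1d2* (ENSMUSG00000021775, chr14:18204054-18239127, - strand) stayed between 70.6 and 134 CPM in all 12 mice. Its means were 104.6 ± 26.2 in LFD, 102 ± 19.0 in HFD, and 107.9 ± 13.1 CPM in icosapent ethyl–treated mice, and its log2 fold changes were -0.033 ± 0.19 for the diet and 0.075 ± 0.14 for icosapent ethyl. Of the exon bases of *Nr1d1*, 8.55% overlap exons of *Thra* on the opposite strand, and the authors counted reads by strand.

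*Dbp* (ENSMUSG00000059824, chr7:45705088-45710203, + strand), the D-box factor at the output of the clock, had the largest fold change of the 10 genes in icosapent ethyl–treated versus LFD mice, but not in the other comparisons. LFD mice were at 75.6, 65.9, 80.3, and 71.7 CPM, close to each other. HFD mice were at 118, 142, 79.2, and 75.2 CPM, and icosapent ethyl–treated mice at 225, 151, 106, and 122 CPM. All 4 icosapent ethyl–treated mice were above all 4 LFD mice, and 2 HFD mice lay within the LFD range. Mean levels were 73.4 ± 6.08 CPM in LFD, 104 ± 32.1 in HFD, and 151 ± 52.6 in icosapent ethyl–treated mice.

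For *Dbp*, the log2 fold change was 0.49 ± 0.20 for HFD versus LFD (edgeR adjusted p = 0.176) and 0.54 ± 0.28 for icosapent ethyl–treated versus HFD mice (0.9997). With 1 mouse left out, the first ranged from 0.30 (without HFD mouse 2) to 0.62 (without HFD mouse 4) and the second from 0.28 (without icosapent ethyl–treated mouse 1) to 0.73 (without HFD mouse 2). These comparisons share the HFD mice and are not independent. Icosapent ethyl–treated versus LFD mice, a comparison of both diet and supplement that the study did not list, gave 1.04 ± 0.21 (edgeR adjusted p = 0.184). By DESeq2 the same difference was 1.05 ± 0.24 with an adjusted p of 0.00217, and over all alternatives the adjusted p lay between 0.00217 and 0.432. *Dbp* shares 18% of its exon bases with *Sphk2* on the opposite strand. The genes whose pattern over the 12 mice was most like that of *Dbp* were *Mcm2* (Pearson's r = 0.921), *9030407P20Rik* (r = 0.911), *Sbspon* (r = 0.908), *Gm5069* (r = 0.905), and *Nudcd1* (r = 0.902), of 13457 compared.

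**Figure D2:**
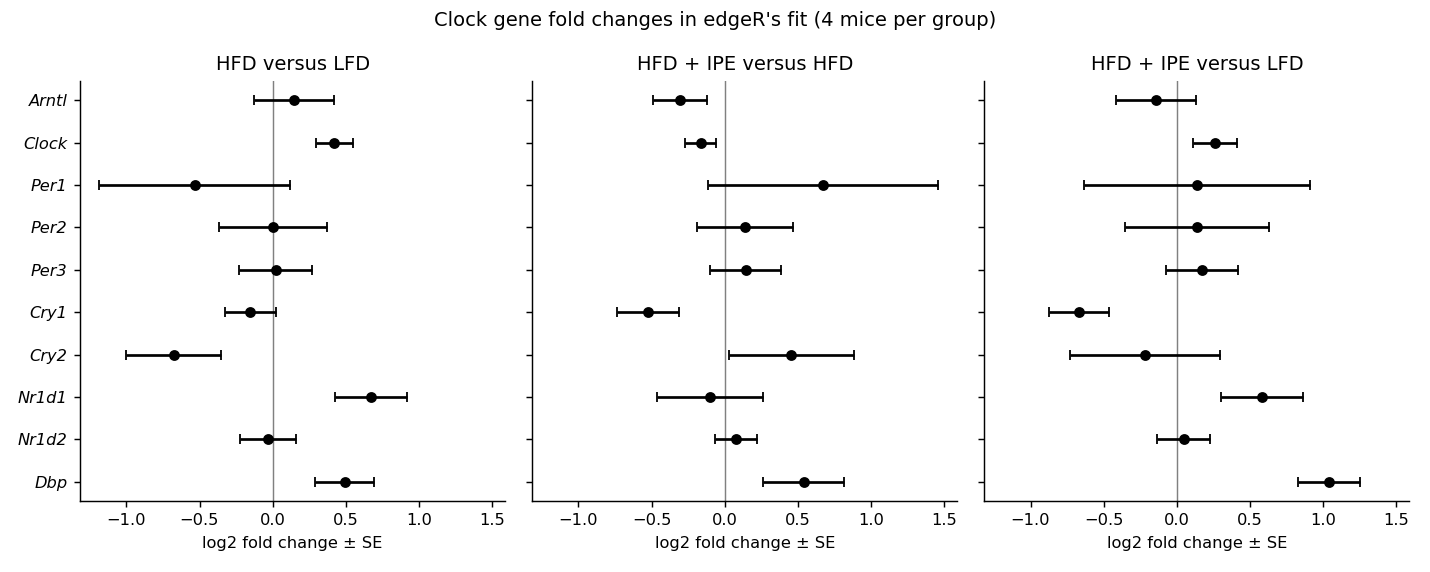
Log2 fold changes (points) with standard errors (bars) of the 10 clock genes in HFD versus LFD mice, in mice on a HFD with icosapent ethyl (HFD + IPE) versus HFD mice, and in HFD + IPE versus LFD mice, 4 mice per group. *Clock*, *Nr1d1*, and *Dbp* lay above 0 and *Cry2* below it in the diet comparison, *Cry1* lay below 0 with icosapent ethyl, and the bars of *Per1* were the widest.

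The second comparison addressed icosapent ethyl in mice on the HFD. In icosapent ethyl–treated versus HFD mice, 0 of the 10 clock genes passed by edgeR or by DESeq2, and 1 (*Cry1*) had an unadjusted p below 0.05. Over all 15913 genes tested by edgeR, 0% were called and 1.39% had an unadjusted p below 0.05, and DESeq2 called 7 of 26076 genes with an adjusted p (0.0268%). None of the 10 clock genes had separate groups, against 1.14% of all genes. In icosapent ethyl–treated versus LFD mice, edgeR called 0 clock genes and 0% of 15935 genes, and 2 clock genes, *Dbp* and *Cry1*, had an unadjusted p below 0.05, where 14% of all genes did. DESeq2 called 1 clock gene, *Dbp*, and 2.58% of all genes with an adjusted p. *Dbp* was also the 1 clock gene without overlap there, against 7.73% of all genes.

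Other genes of the clock were taken from a list of 20, which holds relatives of *Clock* and *Arntl*, the ROR receptors, the repressors *Bhlhe40* and *Bhlhe41*, relatives of *Dbp*, and the kinases and ubiquitin factors that act on PER and CRY proteins. In HFD versus LFD mice, 2 of the 20 passed edgeR's test, against 1.45% of all genes, and both rose. These were *Bhlhe40* and *Bhlhe41* (also called *Dec1* and *Dec2*), which repress E-box genes and so act on the same sites as the *Per* and *Cry* loop. The other 18 did not pass, and 7 of the 20 had a log2 fold change above 0, with a median of -0.041. *Bhlhe40* was at 36.9, 50.7, 48.2, and 44.6 CPM in LFD and at 67.5, 126, 126, and 73.9 CPM in HFD mice, without overlap. Its log2 fold change was 1.12 ± 0.22, with an edgeR adjusted p of 0.0497. *Bhlhe41* was at 16.5, 17.8, 16.4, and 17.8 CPM in LFD and at 27.3, 28.2, 31.7, and 39.0 CPM in HFD mice, also without overlap. Its log2 fold change was 0.87 ± 0.13, with an edgeR adjusted p of 0.0376. Both calls were lost with any of HFD mice 2, 3, and 4 or LFD mice 5, 6, and 7 left out, when 0 of all genes passed, and 1 of the 20 passed without LFD mouse 2. With all 12 mice in 1 fit, 0 of the 20 passed. DESeq2 called 3 of the 20 (15%), against 11.4% of all genes, and these were the same 2 and the deubiquitinase *Usp2*, which was lower in HFD mice (46.5 ± 7.71 against 110.6 ± 49.7 CPM, edgeR adjusted p = 0.0911).

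With icosapent ethyl, *Bhlhe40* was at 136.5, 44.3, 57.5, and 90.1 CPM and *Bhlhe41* at 40.9, 33.0, 17.8, and 60.9 CPM, so that mouse 3 had the *Bhlhe41* level of the LFD mice and mouse 2 their level of *Bhlhe40*. None of the 20 genes passed against HFD mice by edgeR or DESeq2, and 0 had an unadjusted p below 0.05, against 1.39% of all genes. Against LFD mice, 0 of the 20 passed by edgeR and 1 by DESeq2 (*Bhlhe41*), against 0% and 2.58% of all genes. At an unadjusted p below 0.05 there were 3 (*Bhlhe40*, *Bhlhe41*, and *Tef*, all higher), where 14% of all genes were below it. *Tef*, a relative of *Dbp*, was at 75.2 ± 9.45 CPM in LFD, 96.8 ± 10.97 in HFD, and 106 ± 24.4 CPM in icosapent ethyl–treated mice, an order of means like that of *Dbp*.

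**Figure D3:**
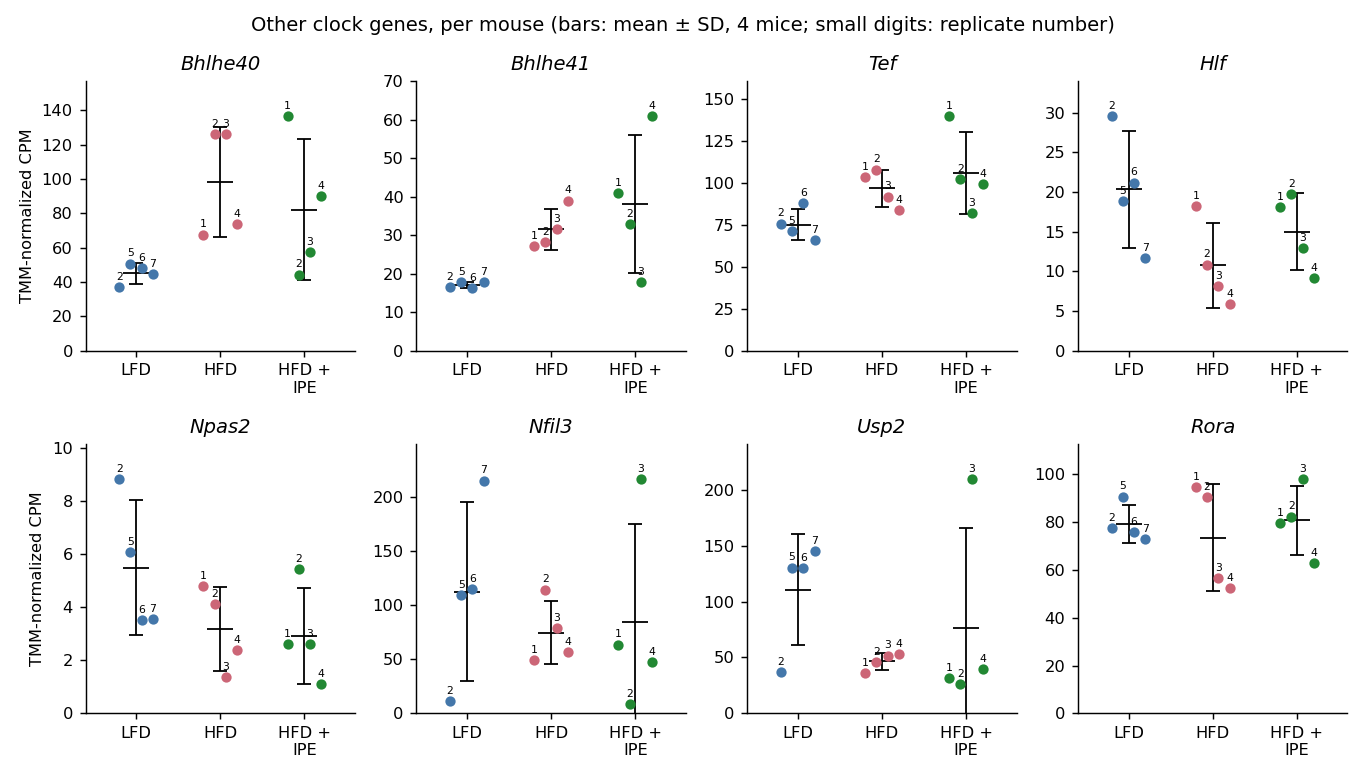
TMM-normalized CPM (vertical axes, starting at 0) of 8 of the 20 other clock genes in LFD, HFD, and HFD + IPE mice. Points are mice with their replicate numbers, and bars give the mean ± SD of 4 mice. The HFD mice lay above the LFD mice for *Bhlhe40* and *Bhlhe41*, and LFD mouse 2 and HFD + IPE mouse 2 were at 11.5 and 8.64 CPM for *Nfil3*, where HFD + IPE mouse 3 reached 217.

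Between HFD and LFD mice, 24.8% of all genes had an unadjusted p below 0.05, 1.45% passed by edgeR, and 11.4% by DESeq2. In the same libraries, all 12 chromaffin markers were lower in HFD than in LFD mice, 9 of them at an unadjusted p below 0.05 and 0 after adjustment in edgeR's test, with a median log2 fold change of -1.25, and DESeq2 called 5. The 7 adrenocortical markers were all higher, 5 of them at an unadjusted p below 0.05 and 0 after adjustment, with a median of 0.49, and DESeq2 called 2. Of the 10 early genes of cAMP signaling, 4 had an unadjusted edgeR p below 0.05, all higher (*Fos*, *Junb*, *Egr1*, and *Dusp1*). After adjustment 0 passed by edgeR, whereas DESeq2 called 3. Within the HFD group, these 4 genes were highest in mice 1 and 2. *Junb* was at 1475, 1373, 69.4, and 46.6 CPM in HFD mice 1 to 4 and at 38.3 to 67.3 CPM in LFD mice. *Dusp1* was at 259, 174, 29.9, and 36.7 CPM in HFD mice and at 33.4 to 54.7 CPM in LFD mice. For *Fos*, all HFD mice were above the LFD mice, and for *Egr1*, HFD mouse 4 was within the LFD range. Of 9 glucocorticoid-responsive genes, 0 passed by edgeR and DESeq2 called 1 (*Tsc22d3*). At an unadjusted p below 0.05 there were 3, of which 2 were higher (*Sgk1* and *Zbtb16*) and 1 lower (*Tsc22d3*). Macrophage markers were lower for 3 of 8 by edgeR, with 5 lower at an unadjusted p below 0.05 and 4 called by DESeq2. By edgeR, 0 of 7 adipocyte markers passed (3 higher and 1 lower at an unadjusted p below 0.05, 3 by DESeq2). Of 6 endothelial and 5 red cell markers, 0 passed by edgeR or DESeq2 or had an unadjusted p below 0.05. The part of these in the values of *Clock*, *Nr1d1*, *Dbp*, *Bhlhe40*, and *Bhlhe41* was not tested.

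The clock genes were then compared with each other over the 12 mice, after subtraction of each group's mean from log2 CPM so that differences between groups did not enter. Of the 45 pairs of genes, 21 had a positive and 24 a negative Pearson correlation. At an adjusted p below 0.05 in a two-sided exact permutation test of the mice within groups, 0 pairs passed, and 7 had an unadjusted p below 0.05. *Per2* and *Cry2* had the highest correlation, with r = 0.894 and Spearman's rho = 0.895 (exact permutation p = 0.00535 and 0.00615, adjusted 0.120 and 0.138). Without both LFD mouse 2 and icosapent ethyl–treated mouse 3, the mice farthest from the median of *Per2*, r was 0.407. With 1 mouse left out, it stayed between 0.813 and 0.926. Within groups, r was 0.906 in LFD, 0.834 in HFD, and 0.931 in icosapent ethyl–treated mice. *Per1* and *Per2* had r = 0.820 and rho = 0.832 (exact permutation p = 0.0042 and 0.00586, adjusted 0.120 and 0.138), and r = 0.708 without icosapent ethyl–treated mice 2 and 3.

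The next pairs were *Per2* with *Nr1d2* (r = 0.770, rho = 0.622), *Clock* with *Per2* (r = 0.758, rho = 0.741), *Per1* with *Cry2* (r = 0.720, rho = 0.692), and *Cry2* with *Nr1d2* (r = 0.659, rho = 0.629). Their exact permutation p values for r were 0.00977, 0.0378, 0.0340, and 0.0320, with adjusted values of 0.146 for the first and 0.270 for the others. For rho, the exact permutation p values were 0.0564, 0.0228, 0.0375, and 0.0464, each 0.278 after adjustment. Leaving out the 2 mice farthest from the median of the first gene gave r = 0.707, 0.646, 0.569, and 0.894 for these pairs. For *Cry2* with *Nr1d2*, however, r was 0.382 without LFD mouse 2 alone and 0.868 without icosapent ethyl–treated mouse 3 alone. Without LFD mouse 2, r was 0.745 for *Per1* with *Per2*, 0.581 for *Per1* with *Cry2*, and 0.528 for *Per2* with *Nr1d2*. *Cry1* and *Dbp* had a negative correlation, with r = -0.690 and rho = -0.685 (exact permutation p = 0.0454 and 0.0499, adjusted 0.270 and 0.278), and r = -0.514 without icosapent ethyl–treated mice 1 and 2. Within groups, their r was -0.969 in HFD and -0.723 in icosapent ethyl–treated mice, but 0.328 in LFD mice. The activators *Arntl* and *Clock* had r = -0.0041 and rho = 0.042, and *Arntl* did not reach an unadjusted p below 0.05 with any of the other 9 genes. Its r with *Per1* was -0.59, with *Nr1d2* -0.55, and with *Cry1* 0.54.

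Within groups, the same mice were often at the ends of the range. LFD mouse 2 and icosapent ethyl–treated mouse 2 were the lowest mouse of their group for *Per1*, *Per2*, *Cry2*, and *Nr1d2*, while icosapent ethyl–treated mouse 3 was the highest of its group for *Per1*, *Per2*, and *Cry2*. The HFD group had no mouse that was high or low for all of them, since HFD mouse 2 was highest for *Per1* and HFD mouse 3 for *Per2*, *Cry2*, and *Nr1d2*.

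Correlations of the 10 clock genes with 39 other listed genes, 390 relations in all, were computed after the values of the clock genes had been seen. At an adjusted p below 0.05 for Pearson's r, 30 of the 390 passed. The share of all genes that pass in the same way was not computed, so this count does not set the listed genes apart. With 1 mouse left out, 0 passed without LFD mouse 2, icosapent ethyl–treated mouse 1, or icosapent ethyl–treated mouse 2, and 17 to 26 without each of the others. All 12 of these fits, also those with 17 to 26, have 3456 permutations, whose smallest p is 0.000289. Below, adjusted values are with all 12 mice, and r is also given without LFD mouse 2. *Per1* with *Nr4a2* and *Cry2* with *Usp2* passed in 9 of these 12 fits, and none of the 30 in more. Passes numbered 1 for *Per1* with *Sik1*, *Cry1* with *Arntl2*, *Nr1d2* with *Timeless*, and *Arntl* with *Errfi1*. They numbered 2 for *Per1* with *Fosb* and *Nr1d2* with *Mt1*, and 0 for *Nr1d2* with *Csnk1d*. The lists were the 20 other clock genes, the 10 early genes of cAMP signaling, and 9 genes that respond to glucocorticoids. *Per1* was most closely related to *Nr4a2*, an orphan nuclear receptor of the early genes (r = 0.964, rho = 0.986), and to its relative *Nr4a1* (r = 0.934, rho = 0.951). The exact permutation p for r was 7.23e-05 for *Nr4a2*, the smallest the permutations can give, and 0.000217 for *Nr4a1*, adjusted 0.0141 and 0.0165. For rho it was 7.23e-05 and 0.000289 by exact permutation, each adjusted to 0.0235. Without icosapent ethyl–treated mice 2 and 3, r was 0.955 and 0.942, and without LFD mouse 2 it was 0.950 and 0.907. *Nr4a2* ranged from 5.51 CPM in icosapent ethyl–treated mouse 2 and 16.2 CPM in LFD mouse 2 to 851 CPM in icosapent ethyl–treated mouse 3, the mice with low and high *Per1*. In all, 4 of the 10 early genes (*Nr4a1*, *Nr4a2*, *Fosb*, and *Sik1*) passed with *Per1*, all with positive r, and the median r over the 10 was 0.631. *Per1* also passed with 1 of the 9 glucocorticoid-responsive genes, *Errfi1*, an inhibitor of epidermal growth factor receptor signaling (r = 0.897, rho = 0.923, exact permutation p = 7.23e-05 and 0.000145, adjusted 0.0141 and 0.0235). Its r was 0.854 without LFD mouse 2.

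*Cry2* was most closely related to *Usp2* (r = 0.983, rho = 0.965) and to *Nr4a3* (r = 0.964, rho = 0.986). Exact permutation p values for r were 0.000579 and 0.000506, adjusted 0.0174 and 0.0165, and those for rho were 0.0042 and 0.000362, adjusted 0.0616 and 0.0235. Without icosapent ethyl–treated mouse 3 and LFD mouse 6, r was 0.991 and 0.964, and without LFD mouse 2 it was 0.983 and 0.940. *Usp2* was at 36.9, 130.3, 129.7, and 145 CPM in LFD mice 2, 5, 6, and 7, at 35.9 to 52.7 CPM in HFD mice, and at 31.4, 26.2, 209.7, and 39.6 CPM in icosapent ethyl–treated mice. The lowest mouse of each group was the same as for *Cry2*, and so was the highest icosapent ethyl–treated mouse. *Nfil3*, the repressor that competes with *Dbp* for D-box sites, went with *Per2* (r = 0.956, rho = 0.888) and with *Per1* (r = 0.907, rho = 0.951), with exact permutation p values for r of 0.00145 and 0.000723 (adjusted 0.0329 and 0.0188) and for rho of 0.00282 and 0.000651 (adjusted 0.0578 and 0.0282). Without the 2 farthest mice, these r were 0.843 and 0.842, and without LFD mouse 2 they were 0.924 and 0.873.

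*Dbp* went with *Tef* (r = 0.885, rho = 0.909, exact permutation p = 0.000362 and 0.000289, adjusted 0.0165 and 0.0235), and r was 0.771 without the 2 farthest mice and 0.885 without LFD mouse 2. *Tef* was the 1 of the 20 other clock genes that passed with *Dbp*. *Nr1d2* passed with 7 of the 39 genes. It went with the kinase gene *Csnk1d* (r = 0.915, adjusted p = 0.0443 by exact permutation), the cell cycle inhibitor *Cdkn1a* (0.913, 0.0165), the cAMP response gene *Crem* (0.889, 0.0165), and the metallothionein *Mt1* (0.804, 0.0364). Without LFD mouse 2, these r were 0.831, 0.874, 0.825, and 0.812. It was opposite to *Btrc* (r = -0.83), *Timeless* (r = -0.80), and *Npas2*, a relative of *Clock* that also pairs with *Arntl* (r = -0.850, rho = -0.923, exact permutation p = 0.000289 and 0.00101, adjusted 0.0165 and 0.0329), with r = -0.862 without the 2 farthest mice and -0.885 without LFD mouse 2. *Npas2* was at 8.84, 6.09, 3.52, and 3.54 CPM in LFD mice, and the LFD mice low in it were those high in *Nr1d2*. In all, *Per2* passed with 7 genes and *Cry2* with 6, all with positive r, and *Cry1* with 2, *Junb* (r = -0.85) and *Arntl2* (r = -0.82). *Clock*, *Per3*, and *Nr1d1* passed with 0 of the 39 genes, at 12 mice. *Arntl* passed with 1, the glucocorticoid-responsive gene *Errfi1* (r = -0.79, rho = -0.73, exact permutation p = 0.00369 and 0.0156, adjusted 0.0480 and 0.115), and r was -0.72 without the 2 farthest mice and -0.69 without LFD mouse 2. Mice of a group shared a diet and each gene pair shared its libraries, and with the hour of collection not given, its part in these correlations was not tested.

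**Figure D4:**
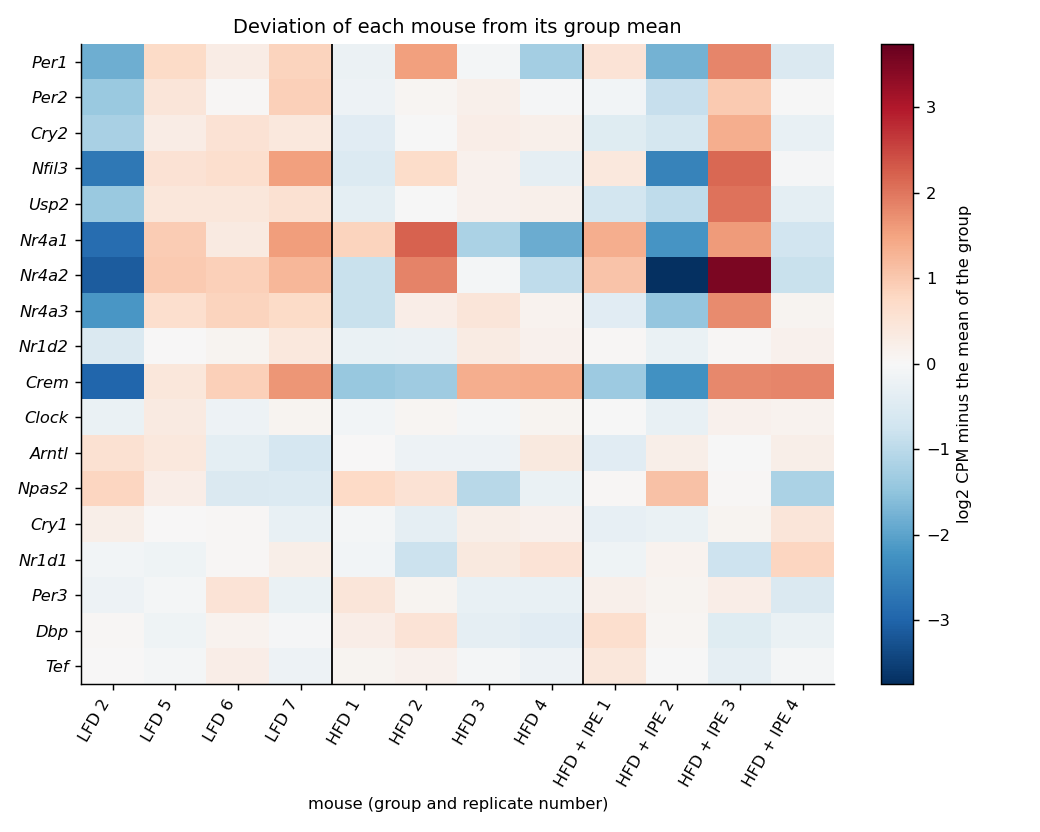
Deviation of each mouse from the mean of its group in log2 CPM (color, red above and blue below the mean) for the 10 clock genes and 8 genes of the lists (rows), with the mice in columns and black lines between the groups. LFD mouse 2 and HFD + IPE mouse 2 were low and HFD + IPE mouse 3 was high for *Per1*, *Per2*, *Cry2*, *Nfil3*, *Usp2*, and the *Nr4a* genes, while *Clock*, *Arntl*, and *Cry1* varied less.

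**Figure D5:**
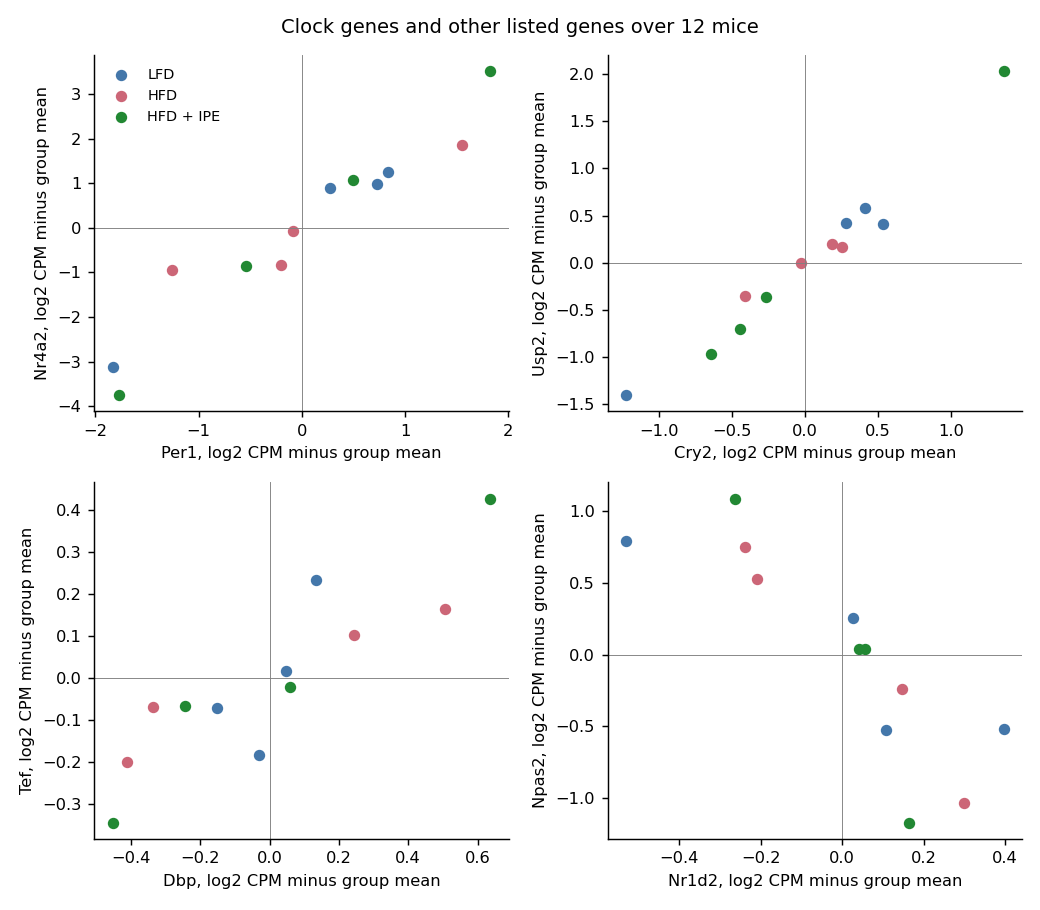
Log2 CPM minus the mean of the group for 4 pairs of genes, 1 point per mouse and 12 mice per panel, colored by group. *Per1* and *Nr4a2* (r = 0.964), *Cry2* and *Usp2* (r = 0.983), and *Dbp* and *Tef* (r = 0.885) lay along rising lines, and *Nr1d2* and *Npas2* (r = -0.850) along a falling one.

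The amount of this variation differed between the members. The within-group SD of log2 CPM was 0.731 for *Cry2*, 0.725 for *Per2*, and 0.520 for *Nr1d1*, which exceeded 94.7%, 94.5%, and 87% of 13458 genes. It was 0.408 for *Arntl*, 0.381 for *Dbp*, 0.354 for *Per3*, 0.291 for *Nr1d2*, 0.280 for *Cry1*, and 0.203 for *Clock*. *Clock* was the 1 member below the median of all genes, with a smaller SD in 41.8% of them. Among the other clock genes, *Nfil3* (SD 1.57) and *Usp2* (SD 0.974) varied more than 99.7% and 98.6% of genes.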

How the data were processed

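RNA-seq libraries of the adrenal cortex of 12 mice were analysed. The authors deposited raw counts per gene and mouse, made from strand-specific libraries with cutadapt, STAR on GRCm38, and HTSeq 0.6.1p1 in reverse-strand mode on GENCODE M12, without normalization. Symbols, coordinates, and exon lengths came from GENCODE M21 for 49326 of 49585 genes. Groups followed the labels. No 2 libraries were copies (66 pairs, lowest chi-square per degree of freedom 26). Each pair of groups was tested in its 8 mice with edgeR 4.0.16 in R 4.3.3 (TMM, filterByExpr with a minimum count of 10, robust quasi-likelihood fit, no covariates, Benjamini-Hochberg adjustment over all genes, threshold 0.05), and with DESeq2 1.42.0 as an alternative. CPM were computed with TMM factors over all 12 mice, and correlations used log2 CPM (prior count 2) with 13824 permutations within groups. Same-numbered HFD and icosapent ethyl–treated mice deviated together (r = 0.240, 0.116, 0.340, and 0.632 for the numbers 1 to 4), as did some with different numbers (0.598 for HFD mouse 1 with icosapent ethyl–treated mouse 2). The numbers, which both groups share, were used as a block in an alternative fit. The procedures were tested on simulated data. Named genes were the 10 members, the other clock genes, listed genes past a threshold, and the 5 genes most like *Arntl* and *Dbp*. Members and lists were chosen with earlier results of these data known, and *Nr4a3*, *Usp2*, and *Npas2* were described for their correlations after these had been seen.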

Additional observations from a re-analysis of the deposited data

Results flagged for a closer look

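In groups of 4 mice, 1 mouse stood far from the other 3 (by Dixon's criterion) in 5 of the 90 groups examined, 10 clock genes and 20 other clock genes in 3 groups each, and chance alone gives about 1 in 20. *Cry2* was at 119.6 CPM in icosapent ethyl–treated mouse 3, where the other 3 mice of the group had 29.9 to 38.8 CPM. *Usp2* was at 209.7 CPM in the same mouse, against 26.2 to 39.6 CPM in the others, and at 36.9 CPM in LFD mouse 2, against 129.7 to 145 CPM in the other LFD mice. *Arntl2* was at 1.05 CPM in LFD mouse 2, below 1.45 to 1.52 CPM in the others, and *Ciart* was at 0.957 CPM in LFD mouse 6, above 0.404 to 0.471 CPM in the others.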

How the results depend on the processing

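In HFD versus LFD mice, 0 clock genes passed under every alternative run. The count of all genes was 230, and it was 1932 by DESeq2, 84 with library totals, 556 with all 12 mice in 1 fit, and 0 to 918 with 1 mouse left out. Of the 20 other clock genes, the count of 2 became 1 with DESeq2 size factors, 1 with library totals, 0 with all 12 mice in 1 fit, and 0 to 2 with 1 mouse left out. The log2 fold change of *Per2* turned to -0.078 with library totals and -0.0054 with at least 10 counts in every mouse, and that of *Per3* to -0.053 with library totals. With 1 mouse left out, changes ranged from -0.036 to 0.37 for *Arntl*, -0.29 to 0.31 for *Per2*, -0.15 to 0.24 for *Per3*, and -0.18 to 0.098 for *Nr1d2*.

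In icosapent ethyl–treated versus HFD mice, DESeq2 called 7 genes against 0 by edgeR. The replicate block gave 0 calls of clock genes and of all genes and changed no call, and turned *Per2* to -0.0051. With 1 mouse left out, the ranges were -0.22 to 1.47 for *Per1*, -0.30 to 0.36 for *Per2*, -0.24 to 0.66 for *Cry2*, -0.44 to 0.11 for *Nr1d1*, and -0.00085 to 0.18 for *Nr1d2*. In icosapent ethyl–treated versus LFD mice, DESeq2 called 1 clock gene (*Dbp*, 1.05), 1 other clock gene, and 413 genes, all 12 mice in 1 fit gave 2 genes, and leaving out 1 mouse gave 0 to 1. The ranges there were -0.31 to 0.066 for *Arntl*, -0.76 to 0.48 for *Per1*, -0.29 to 0.47 for *Per2*, and -0.10 to 0.19 for *Nr1d2*.

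Of the 45 pairs of clock genes, 1 passed with library totals (*Per1* with *Per2*, r = 0.8291, adjusted p = 0.0130 by exact permutation). Without subtraction of group means, 4 passed, *Per1* with *Per2* (r = 0.768), *Per2* with *Cry2* (0.786), *Per2* with *Nr1d2* (0.761), and *Cry1* with *Dbp* (-0.853), and with 1 mouse left out 0 passed each time. The cause of these shifts was not tested. The LFD group has 1 number in common with each of the others, so no block was used there. Of the 390 relations with listed genes, the count of 30 became 0 to 26 with 1 mouse left out, an alternative chosen after the data were seen.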
